A study of Mus musculus with 18 samples.

Results

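Genes of the retina that switch off and reset the light response were followed through postnatal development: Sag, Grk1, Rcvrn, Pdc, Rgs9, Guca1a, Guca1b, Gucy2e and Slc24a1. They were taken by name, as every probe set (the group of short probes that reads 1 transcript) whose only gene symbol in the array annotation is one of them, which gave 12 of the 45037 probe sets that are not hybridization controls and 9 of 18193 genes. For each gene the probe set with the highest mean over all 18 arrays leads the description. Retinal RNA was hybridized to Affymetrix GeneChip mouse genome arrays, with 3 Plk3-KO and 3 WT retinal samples at each of postnatal day (P)0, P7 and adult. Plk3-KO mice are deficient in polo-like kinase 3, a protein kinase of a family studied in cell division, and the WT mice were littermates. The labels give the strain of both as C57Bl/6. The original knockout line was partly Black Swiss and carried the Rd1 allele of Pde6b, and it was crossed to C57Bl/6 mice until litters no longer carried that allele. Whether other Black Swiss sequence remains was not tested. The knockout is a single line, and the labels of the arrays give the adult age only as adult. The study speaks of biological replicates, but neither it nor the labels say whether each array held the retinas of 1 animal, and p-values measure the spread between these samples. Plk3's own probe set read, in log2 signal, 8.0, 8.2 and 7.5 at P0, 8.1, 6.1 and 7.7 at P7 and 7.4, 8.0 and 7.7 in adult Plk3-KO retinas. In WT retinas it read 6.4, 6.9 and 7.3 at P0, 6.0, 6.3 and 6.0 at P7 and 5.9, 3.9 and 5.8 in adults. It was higher in every Plk3-KO array than in any WT array at P0 and in adults, and overlapped at P7. By the study's account it reads the end of the transcript beyond the targeted stretch, so it cannot show the loss of the deleted part. By qPCR within the targeted region the study reports strongly reduced Plk3, and by qPCR of the same end as the probe set a raised signal. Its in situ hybridization without signal in Plk3-KO retinas is shown for embryonic retinas. At P0 the study could no longer detect Plk3 by in situ hybridization, so that method does not speak to the ages described here.

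A rod absorbs light with its photopigment and signals through transducin, which turns on a phosphodiesterase that lowers cGMP and closes the cGMP-gated channels. To end the response, the receptor kinase Grk1 phosphorylates the active pigment, rod arrestin (Sag) caps it, and the GTPase-activating protein Rgs9 hastens the return of transducin to its resting state. Recoverin (Rcvrn) holds back Grk1 while calcium is high, and phosducin (Pdc) binds the beta-gamma pair of transducin. Recovery needs new cGMP: calcium leaves through the exchanger Slc24a1, and the calcium sensors Guca1a and Guca1b (GCAP1 and GCAP2) then stimulate the guanylate cyclase Gucy2e. In mice, rods are still being born at P0 and build their outer segments in the following weeks.

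In build GRCm38.p6, Sag (chr1:87798143-87845158) and Pdc (chr1:150319417-150333906) share a chromosome, and Grk1 (chr8:13405081-13421951) and Slc24a1 (chr9:64922861-64951620) each lie on their own. Rcvrn (chr11:67695326-67703355), Gucy2e (chr11:69218117-69237279) and Rgs9 (chr11:109225348-109298181) share chromosome 11, and Guca1b (chr17:47384694-47392967) lies beside Guca1a (chr17:47394557-47413514). None is on chromosome 4 with Plk3. RefSeq promoter sequences of the same build were matched for 7 of the 9 genes, Rcvrn and Guca1b being the others. The 250 bases before the start were searched on both strands for TAATCC, the core that the photoreceptor factors CRX and OTX2 bind, and for TGCTGA, the core of the site of the rod factor NRL. TAATCC was in 3 of the 7 promoters (Sag, Guca1a and Gucy2e), against 6.25% of all 32851 promoters in the table. TGCTGA was in 2 of the 7 (Sag and Rgs9), against 16.1% of all promoters. The 4 promoters with a match are shown 5′ to 3′ on the strand of the gene, since they set Sag and Guca1a, whose signal went up with age, beside Rgs9, whose lead did not. Capitals mark the matches, which on this strand read GGATTA where TAATCC is on the opposite strand and TCAGCA where TGCTGA is. The first bases of the matches were at position -87 (TAATCC) and -187 (TGCTGA) for Sag, -57 for Guca1a, -42 for Gucy2e and -147 for Rgs9, counted back from the start. The starts are those of the table, which lie inside the listed span of Sag, Guca1a and Gucy2e, and a match describes these letters only.
Sag, chr1:87803430-87803679, plus strand: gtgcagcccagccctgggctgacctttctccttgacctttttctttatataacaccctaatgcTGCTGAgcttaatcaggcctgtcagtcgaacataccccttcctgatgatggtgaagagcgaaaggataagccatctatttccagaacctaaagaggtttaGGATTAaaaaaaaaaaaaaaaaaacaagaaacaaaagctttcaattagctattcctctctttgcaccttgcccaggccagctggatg
Guca1a, chr17:47400607-47400856, minus strand: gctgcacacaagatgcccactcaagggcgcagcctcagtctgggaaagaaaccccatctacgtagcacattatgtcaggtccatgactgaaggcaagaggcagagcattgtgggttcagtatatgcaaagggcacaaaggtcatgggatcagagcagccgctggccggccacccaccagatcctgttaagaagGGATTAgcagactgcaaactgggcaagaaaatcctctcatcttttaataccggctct
Gucy2e, chr11:69237023-69237272, minus strand: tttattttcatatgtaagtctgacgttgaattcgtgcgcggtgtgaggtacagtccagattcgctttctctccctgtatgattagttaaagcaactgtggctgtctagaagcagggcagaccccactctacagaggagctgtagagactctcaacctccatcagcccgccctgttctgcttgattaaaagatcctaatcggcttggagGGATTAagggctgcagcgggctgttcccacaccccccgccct
Rgs9, chr11:109298182-109298431, minus strand: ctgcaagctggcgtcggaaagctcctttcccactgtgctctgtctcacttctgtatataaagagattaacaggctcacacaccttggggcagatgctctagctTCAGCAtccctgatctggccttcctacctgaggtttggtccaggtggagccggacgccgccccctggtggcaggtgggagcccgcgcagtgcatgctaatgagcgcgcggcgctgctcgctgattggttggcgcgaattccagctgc

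Values are log2 MAS5 signals, in which 1 unit is a doubling, given to 1 decimal. A mean below 7, the minimum of the study's methods, is not a firm level, and levels of different genes are not set against each other because each probe set has its own scale. Rod markers were present: Nrl and Crx were at 11.6 or above on every array, and Rom1 at 9.1 or above. The remaining rod marker read, Prph2, was below 7 on all 6 P0 arrays and at 8.4 or above at P7 and in adults. There were 4 arrays that stood apart from the others of their age. The median correlation with the other arrays of the same age was 0.81 for adult Plk3-KO array 3 and 0.89 for adult WT array 3, against 0.90 to 0.92 for the other adult arrays. At P7 it was 0.92 for Plk3-KO array 2 and 0.91 for WT array 3, against 0.94 for the other P7 arrays. The 3' minus 5' signal of the actin control, which grows as RNA is degraded, was 2.7 on adult Plk3-KO array 3 and 1.6 to 1.8 on the other adult arrays. Among P7 arrays it was 1.6 on the same pair that stood apart and 0.8 to 1.1 on the rest. On P0 arrays it was 1.0 to 1.3, below all adult arrays, so it also moved with age.

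From P0 to P7, signal for the shutoff and recovery genes went up in Plk3-KO and WT retinas alike, with Rgs9 the exception among those tested. In limma fits, adjusted over all probe sets tested by the Benjamini-Hochberg method, 7 of the 8 genes that could be tested were called higher at P7 than at P0 in Plk3-KO retinas, where 10.6% of all probe sets tested were called higher. In WT retinas it was also 7 of 8, against 10.8% of all probe sets. Gucy2e was below 7 in every group and was not tested in these fits. Grk1, Guca1b and Slc24a1 had P0 means below 7 in both genotypes and entered the test only through P7. Their means thus had to differ in that direction, by however little, and their calls add nothing to the count. The calls left are those of Sag, Rcvrn, Pdc and Guca1a, firm at both ages, while Rgs9, also firm, was not called. In bulk retina, fewer cells of a type and less RNA per cell cannot be told apart.

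Sag was already high at P0. Rod arrestin read 12, 11.4 and 11.3 at P0 in Plk3-KO retinas, and 11.5, 11.8 and 11.1 in WT retinas. At P7 the values were 14.6, 14.9 and 14.8 in Plk3-KO retinas, against 14.7, 14.4 and 15.0 in WT retinas. Adult retinas gave 15.9, 15.6 and 16.7 for Plk3-KO and 16.3, 15.6 and 15.3 for WT. Every array was above all arrays of the younger ages, while the genotypes overlapped at each age. P7 exceeded P0 by 3.20 ± 0.32 (SE) log2 in Plk3-KO retinas (adjusted p = 2.77e-06) and by 3.23 ± 0.32 in WT retinas (adjusted p = 2.98e-06, limma). The adult step was smaller, at 1.30 log2 in Plk3-KO retinas (adjusted p = 0.0097) and 1.03 in WT retinas (adjusted p = 0.0324, limma).

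Grk1 had group means above the minimum of 7 only from P7 on. The kinase read 2.5, 2.6 and 2.7 at P0 in Plk3-KO retinas, against 2.1, 2.3 and 2.9 in WT retinas, all far below that minimum. At P7 it read 8.0, 8.4 and 9.4 in Plk3-KO retinas, against 8.7, 9.5 and 6.9 in WT retinas. Adult values were 10.1, 9.5 and 8.9 for Plk3-KO and 9.7, 9.0 and 8.7 for WT. No P0 array reached the lowest P7 array, whereas P7 and adult arrays overlapped in both genotypes. The P7 minus P0 difference was 6.00 ± 0.57 log2 in Plk3-KO retinas, against 5.93 ± 0.57 in WT retinas (SE), with P0 values that are not firm. Between P7 and adult the difference was 0.90 log2 in Plk3-KO retinas (95% interval -0.31 to 2.11, adjusted p = 0.289) and 0.77 in WT retinas (-0.44 to 1.97, adjusted p = 0.357, limma), neither past the threshold. WT array 3 at P7, which stood apart, carried the lowest P7 value. Without it the WT difference between adult and P7 was 0.03 log2.

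**Figure D1:**
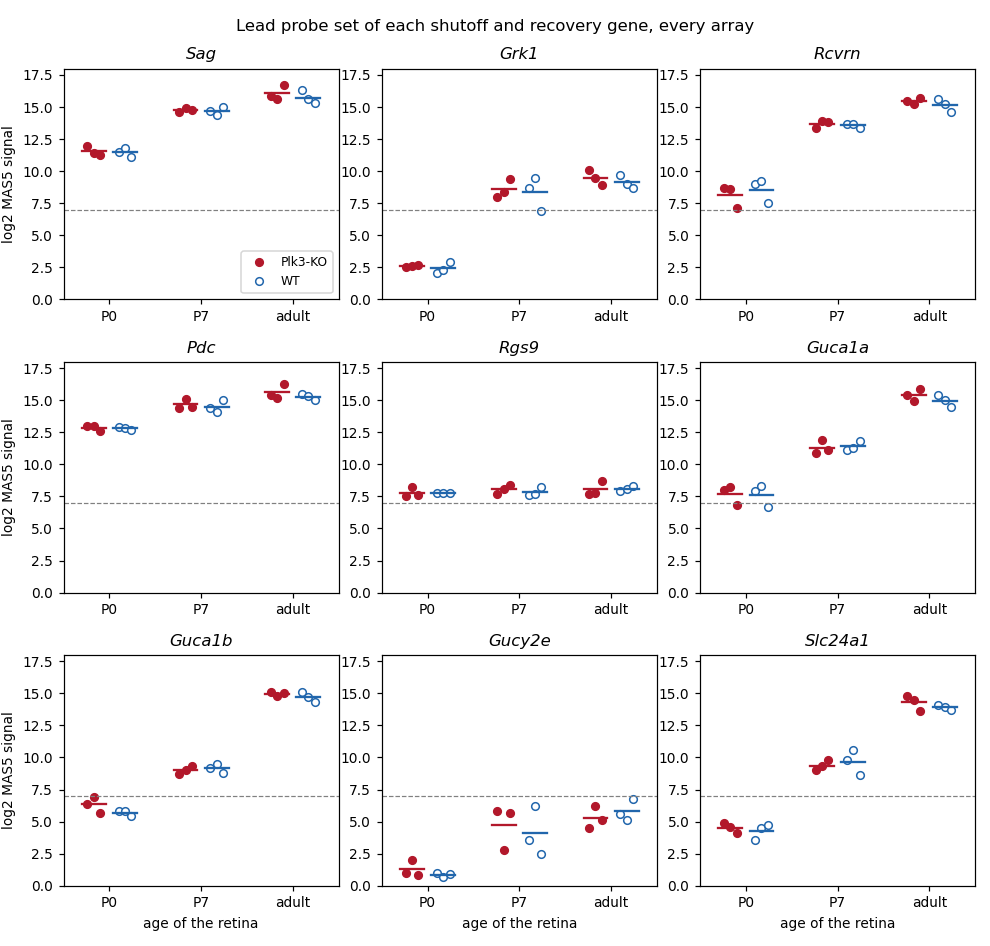
Log2 MAS5 signal (y axis) of the lead probe set of each of the 9 genes on every array at P0, P7 and adult (x axis). Filled red points are Plk3-KO arrays and open blue points WT arrays, short lines are group means of 3 arrays, and the dashed line is the minimum of 7. Most genes step up with age with the genotypes overlapping, Rgs9 lies near 8 throughout, and Gucy2e does not reach 7 on any array.

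Recoverin, the partner of Grk1, varied most between arrays at P0. Rcvrn was 8.7, 8.6 and 7.1 in Plk3-KO retinas at P0 and 9.0, 9.2 and 7.5 in WT retinas. By P7 it stood at 13.4, 13.9 and 13.8 in Plk3-KO retinas, against 13.7, 13.7 and 13.4 in WT retinas. In adults it read 15.5, 15.2 and 15.7 for Plk3-KO and 15.6, 15.2 and 14.6 for WT. The 3 ages did not overlap in either genotype, and array 3 was the lowest of each genotype at P0. The P7 minus P0 difference was 5.57 log2 in Plk3-KO retinas (adjusted p = 2.54e-07) and 5.03 in WT retinas (adjusted p = 7.37e-07, limma). Adult exceeded P7 by 1.77 log2 in Plk3-KO retinas (adjusted p = 0.00963) and 1.53 in WT retinas (adjusted p = 0.0209, limma). Recoverin is also made by some cone bipolar cells.

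Phosducin changed least among the genes called. Pdc read 13.0, 13.0 and 12.6 at P0 in Plk3-KO retinas, against 12.9, 12.8 and 12.7 in WT retinas. At P7 it was 14.4, 15.1 and 14.5 in Plk3-KO retinas, against 14.4, 14.1 and 15.0 in WT retinas. Adult Plk3-KO retinas had 15.4, 15.2 and 16.3, and adult WT retinas 15.5, 15.3 and 15.0. P0 and P7 were apart in both genotypes, and P7 and adult were apart only in Plk3-KO retinas, since the highest P7 and lowest adult WT arrays were equal at 15.0. The P7 minus P0 difference was 1.80 log2 in Plk3-KO retinas (adjusted p = 0.000432) and 1.70 in WT retinas (adjusted p = 0.00076, limma). Adult minus P7 was 0.97 log2 in Plk3-KO retinas (adjusted p = 0.0343) and 0.77 in WT retinas (adjusted p = 0.0843, limma). The test of the difference between these steps gave 0.20 log2 (95% interval -0.71 to 1.11, adjusted p = 1, limma), so the call in one genotype and not in the other does not show that they differ. The highest adult Plk3-KO value was on array 3, which stood apart, and without it the Plk3-KO step was 0.63 log2 (adjusted p = 0.125, limma).

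Rgs9, the GTPase-activating protein that sets the pace of rod recovery, was the gene whose lead probe set did not move with age. It read 7.5, 8.2 and 7.6 at P0 in Plk3-KO retinas and 7.8 on each of the 3 WT arrays. At P7 the values were 7.7, 8.1 and 8.4 in Plk3-KO retinas, against 7.6, 7.7 and 8.2 in WT retinas. Adult retinas gave 7.7, 7.8 and 8.7 for Plk3-KO and 7.9, 8.1 and 8.3 for WT. All 18 values lay between 7.5 and 8.7, close to the minimum. All ages overlapped in Plk3-KO retinas. Of the WT groups only adult and P0 were apart, by a single step of the last decimal. Adult minus P0 was 0.30 log2 in both genotypes (95% interval -0.34 to 0.94 in each), with adjusted p = 0.431 in Plk3-KO retinas, against 0.422 in WT retinas (limma).

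The other probe sets of Rgs9 did not settle its course. Probe set 1439635_at read 6.9, 7.6 and 6.8 at P0, 8.4, 6.2 and 9.1 at P7 and 7.2, 8.8 and 10.3 in adult Plk3-KO retinas. In WT retinas it read 7.7, 7.2 and 7.0 at P0, 8.8, 8.8 and 6.1 at P7 and 6.3, 6.9 and 9.8 in adults. Its extremes fell on the arrays that stood apart: at P7 Plk3-KO array 2 and WT array 3 were the lowest of their groups, and array 3 of each genotype was the highest among adults. Adult minus P0 was 1.67 log2 in Plk3-KO retinas (95% interval -0.39 to 3.73, adjusted p = 0.172) and 0.37 in WT retinas (-1.69 to 2.43, adjusted p = 0.769, limma). Probe set 1426033_at had group means from 5.07 to 6.83, below 7 at every age, and was not tested. In WT retinas it read 5.3, 5.0 and 4.9 at P0 and 7.0, 6.6 and 6.9 in adults, without overlap. In Plk3-KO retinas it read 4.6, 5.5 and 5.1 at P0 and 7.5, 7.2 and 4.2 in adults. The 4.2 was on array 3, which stood apart. Rgs9 is known to give a retinal and a brain form by splicing, and which form each probe set reads is not stated in the sources used here.

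**Figure D2:**
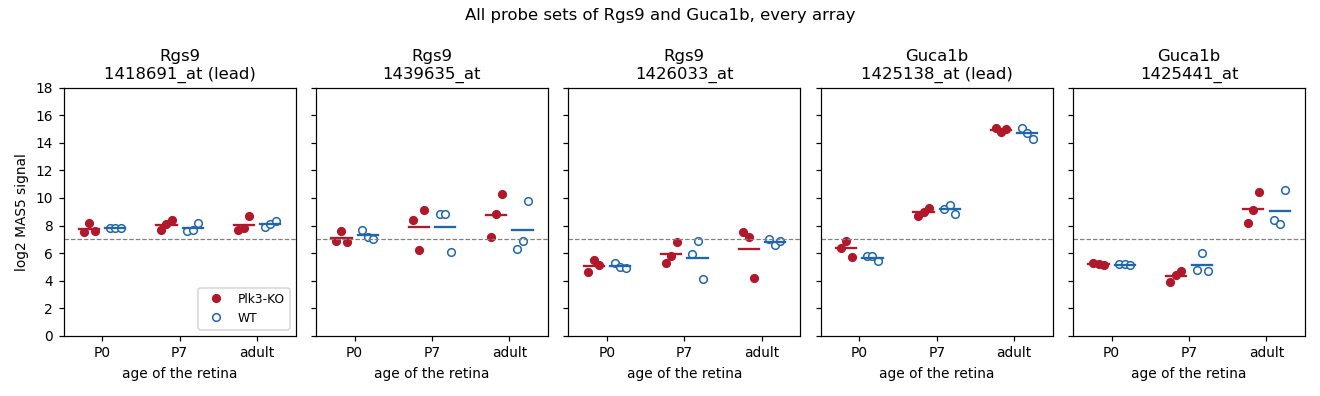
Log2 MAS5 signal (y axis) of the 3 probe sets of Rgs9 and the 2 of Guca1b on every array by age (x axis). Filled red points are Plk3-KO, open blue points WT, lines group means of 3 arrays and the dashed line the minimum of 7. The lead of Rgs9 keeps between 7.5 and 8.7, 1439635_at scatters from 6.1 to 10.3, and 1425441_at of Guca1b passes 7 only in adults.

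The calcium sensors of the cyclase had larger log2 steps from P7 to adult than arrestin or recoverin. Guca1a (GCAP1) read 8.0, 8.2 and 6.8 at P0 in Plk3-KO retinas, against 7.9, 8.3 and 6.7 in WT retinas. At P7 it read 10.9, 11.9 and 11.1 in Plk3-KO retinas, against 11.1, 11.3 and 11.8 in WT retinas. Adult values were 15.4, 14.9 and 15.9 for Plk3-KO and 15.4, 15.0 and 14.5 for WT. The ages were apart in both genotypes, the genotypes overlapped at each, and array 3 was again the lowest at P0. The step to P7 was 3.63 log2 in Plk3-KO retinas (adjusted p = 1.78e-05) and 3.77 in WT retinas (adjusted p = 1.46e-05, limma). The step to adult was of similar size, 4.10 log2 in Plk3-KO retinas (adjusted p = 1.3e-05) and 3.57 in WT retinas (adjusted p = 4.87e-05, limma).

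Guca1b (GCAP2) was far higher in adults than at P7. It read 6.4, 6.9 and 5.7 at P0 in Plk3-KO retinas, against 5.8, 5.8 and 5.4 in WT retinas, below the minimum. At P7 it read 8.7, 9.0 and 9.3 in Plk3-KO retinas, against 9.2, 9.5 and 8.8 in WT retinas. In adults it reached 15.1, 14.8 and 15.0 in Plk3-KO retinas, against 15.1, 14.7 and 14.3 in WT retinas. Adult and P7 arrays were more than 4 log2 units apart. The adult minus P7 difference was 5.97 ± 0.28 log2 in Plk3-KO retinas (SE, adjusted p = 3.21e-09) and 5.53 ± 0.28 in WT retinas (adjusted p = 1.55e-08, limma). The second probe set, 1425441_at, was below 7 at P0 and P7, with 5.3, 5.2 and 5.1 at P0 and 3.9, 4.4 and 4.7 at P7 in Plk3-KO retinas. WT retinas had 5.2, 5.2 and 5.1 at P0 and 4.8, 6.0 and 4.7 at P7. Adult values of that probe set were 8.2, 9.1 and 10.4 in Plk3-KO retinas, against 8.4, 8.1 and 10.6 in WT retinas, the highest being array 3 of each genotype. It entered the test of adult against P7 only through the adult group and so had to differ. Up to P7 it stayed below the minimum, whereas the lead had passed it.

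Gucy2e, the photoreceptor guanylate cyclase, gave no firm level. It was listed at 1.0, 2.0 and 0.8 at P0, 5.8, 2.8 and 5.7 at P7 and 4.5, 6.2 and 5.1 in adult Plk3-KO retinas. WT retinas had 1.0, 0.7 and 0.9 at P0, 3.6, 6.2 and 2.5 at P7 and 5.6, 5.1 and 6.8 in adults. P0 arrays were the lowest in both genotypes, while P7 and adult arrays overlapped. All 18 values were below 7, so it was not tested in the main fits and no fold is given.

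Slc24a1, the rod exchanger that moves calcium out for sodium, stepped up at each age. It read 4.9, 4.6 and 4.1 at P0 in Plk3-KO retinas, against 3.6, 4.5 and 4.7 in WT retinas, none of them firm. At P7 it stood at 9.0, 9.3 and 9.8 in Plk3-KO retinas, against 9.8, 10.6 and 8.6 in WT retinas. Adult values were 14.8, 14.5 and 13.6 for Plk3-KO and 14.1, 13.9 and 13.7 for WT. No 2 ages overlapped in either genotype. The step from P7 to adult was 4.93 ± 0.44 log2 in Plk3-KO retinas (SE, adjusted p = 2.7e-06) and 4.23 ± 0.44 in WT retinas (adjusted p = 1.16e-05, limma).

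From P7 to adult, 6 of the 8 tested genes were called higher in Plk3-KO retinas, where 9.16% of all probe sets tested were called higher, and 5 of 8 in WT retinas, against 9.95%. All 8 had P7 means above 7, so none entered through the adult group alone. The median difference over the 8 was 1.53 log2 in Plk3-KO retinas, against 1.28 in WT retinas, while over all probe sets tested it was -0.07 in Plk3-KO retinas, against -0.03 in WT retinas. Guca1a, Guca1b and Slc24a1 were called in both genotypes when values were quantile normalized between arrays. Sag and Rcvrn then fell below the threshold in both genotypes, with differences for Sag of 0.31 log2 in Plk3-KO and 0.36 in WT retinas, and so did Pdc in Plk3-KO retinas. With 1 array left out, Sag and Rcvrn also lost the call in WT retinas without adult WT array 1 or 2, when 3 of the 8 genes were called. Sag lost it as well without P7 WT array 1 or 2, and Rcvrn without P7 WT array 3. In Plk3-KO retinas Pdc lost it without adult array 3 or P7 array 1 or 3. Over the whole span from P0 to adult, 7 of 8 genes were called higher in Plk3-KO retinas, against 20.1% of all probe sets tested, and 7 of 8 in WT retinas, against 21.3%, with the same reservation for Grk1, Guca1b and Slc24a1. Quantile normalization changed none of these calls, nor those from P0 to P7.

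With values as deposited, the genes differed in how much of the log2 increase from P0 to adult was reached by P7. No share is given for Grk1, Guca1b, Slc24a1 and Gucy2e, whose P0 values are not firm, or for Rgs9. For Rcvrn it was 75.9% and for Sag 71.1% in Plk3-KO retinas, against 76.6% for Rcvrn and 75.8% for Sag in WT retinas. Pdc had gained 65.1% in Plk3-KO and 68.9% in WT retinas. Guca1a was near the midpoint, with 47.0% in Plk3-KO and 51.4% in WT retinas. These shares are on the log2 scale, are given without a test and depend on the scaling. After quantile normalization the WT step from P7 to adult was 0.36 log2 for Sag, 0.26 for Pdc and 1.12 for Rcvrn. In Plk3-KO retinas it was 0.31 log2 for Sag, 0.14 for Pdc and 1.15 for Rcvrn. Sag and Pdc had then reached a larger share by P7 than Rcvrn in both genotypes, so their order above did not hold. Guca1a still had the smallest share of those given.

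**Figure D3:**
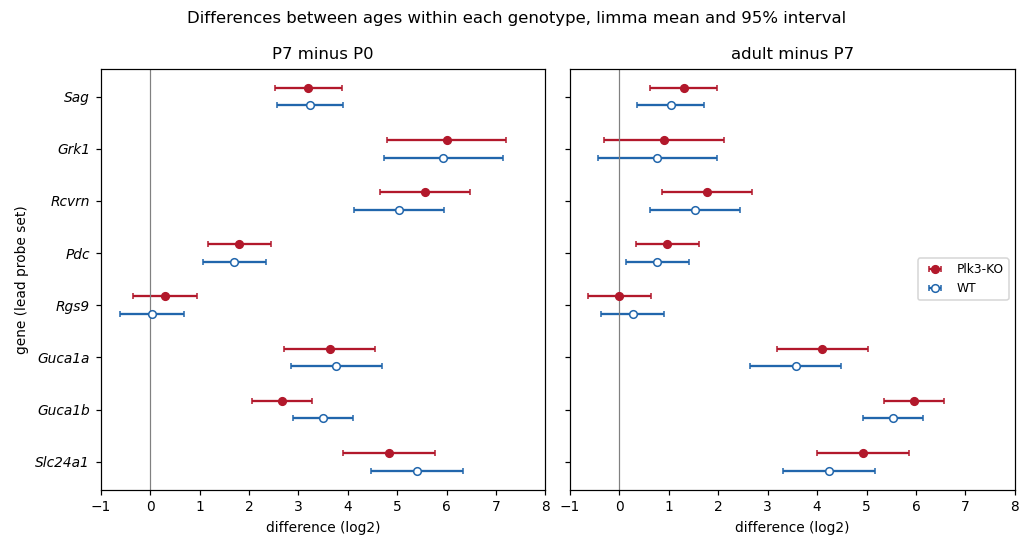
Differences between ages in log2 units (x axis) for the lead probe sets of the 8 tested genes (y axis), P7 minus P0 on the left and adult minus P7 on the right. Filled red points are Plk3-KO and open blue points WT retinas (3 arrays per age), and bars are 95% intervals from limma. Of the genes with firm levels at all ages, Rcvrn, Sag and Pdc have the larger step before P7 in both genotypes. The intervals of Rgs9 include 0 in both steps. The P7 minus P0 values of Grk1, Guca1b and Slc24a1 start from P0 means below 7.

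Other genes of the same steps moved with age too. Of a list of 10, 6 could be read by a probe set with a single symbol, and the others were not analysed here. From P0 to P7, 6 of the 6 were called higher in Plk3-KO retinas and 5 of 6 in WT retinas, against 10.6% of all probe sets tested in Plk3-KO and 10.8% in WT retinas. Arr3 in both genotypes and Slc24a2 in Plk3-KO retinas had P0 means below 7 and so had to differ, and without them it was 4 of 4 in Plk3-KO and 4 of 5 in WT retinas. From P7 to adult, where all had firm levels, 4 of 6 were called in Plk3-KO retinas (9.16% of all probe sets) and 5 of 6 in WT retinas (9.95%). Unc119, a carrier of the lipid-modified transducin alpha subunit, gained 2.47 log2 in Plk3-KO and 2.23 in WT retinas from P0 to P7. Gnb5, the beta subunit that works with Rgs9, gained 2.17 log2 in Plk3-KO and 2.10 in WT retinas in the same step.

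Rgs9bp, which anchors Rgs9 to the disc membrane, had the course that the lead of Rgs9 lacked. It read 7.6, 7.2 and 7.5 at P0, 11.2, 11.5 and 11.2 at P7 and 13.6, 13.6 and 13.5 in adult Plk3-KO retinas. In WT retinas it read 7.7, 7.6 and 7.0 at P0, 11.2, 11.3 and 10.7 at P7 and 12.6, 12.4 and 13.3 in adults. From P0 to P7 the difference was 3.87 log2 in Plk3-KO (adjusted p = 3.54e-08) and 3.63 in WT retinas (adjusted p = 7.11e-08, limma), and the adult genotypes did not overlap, as for 5.48% of all probe sets tested. The cone genes of the list were Arr3, cone arrestin, and Slc24a2, the cone exchanger. Arr3 read 5.9, 6.5 and 4.7 at P0 and 9.6, 10 and 9.5 at P7 in Plk3-KO retinas, against 5.8, 5.9 and 6.0 at P0 and 10.2, 10.1 and 10 at P7 in WT retinas, with no firm level at P0. Slc24a2 was called in that step in Plk3-KO retinas, with 1.63 log2 (adjusted p = 0.00567) from a P0 mean below 7, and in WT retinas the difference was 0.90 (adjusted p = 0.112, limma). The test of the difference between these steps gave 0.73 ± 0.54 log2 (SE, adjusted p = 1, limma), so they are not shown to differ. Rd3, which binds the cyclase and restrains it, gained 3.67 log2 in Plk3-KO and 3.30 in WT retinas in the same step.

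The activation side of the cascade showed similar counts. Of 8 genes from transducin to the cGMP-gated channel, 8 were called higher at P7 than at P0 in each genotype, against 10.6% of all probe sets tested in Plk3-KO and 10.8% in WT retinas. Gnat1, Pde6a and Cnga1 had P0 means below 7 and had to differ, which leaves 5 of 5. From P7 to adult 5 were called higher in Plk3-KO retinas (9.16% of all probe sets) and 6 in WT retinas (9.95%). Gnat1, the transducin alpha subunit, gained 5.53 log2 from P7 to adult in Plk3-KO retinas (adjusted p = 7.37e-06) and 4.63 in WT retinas (adjusted p = 3.98e-05, limma). Gnb1, the transducin beta subunit that phosducin binds, gained 1.53 log2 in Plk3-KO and 1.47 in WT retinas in the same step. Pde6g, the inhibitory subunit of the phosphodiesterase, gained 1.67 log2 in Plk3-KO and 1.40 in WT retinas.

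Markers of other cells moved over the same ages, and their part in the age differences was not tested. The level of a list is given as the mean log2 signal of its genes on an array. Progenitor and cell cycle markers were called lower at P7 than at P0 for 6 of 6 genes in each genotype, against 10.5% of all probe sets tested in Plk3-KO and 9.6% in WT retinas. Fgf15 entered only through P0 and had to differ, which leaves 5 of 5. Their mean on an array was 12.6 to 12.7 at P0 in Plk3-KO and 12.5 to 12.7 in WT retinas. In adults it was 4.63 to 6.05 in Plk3-KO and 4.08 to 5.13 in WT retinas. The list mean of pigment epithelium markers went the same way as the shutoff and recovery genes. It was 5.88 to 6.45 at P0 and 10.03 to 10.4 in adult Plk3-KO retinas, and 5.70 to 6.30 at P0 and 9.42 to 10.4 in adult WT retinas. Of that list Rpe65, the isomerase of the visual cycle, was 1.3 to 1.8 at P0 and 10.2 to 12.2 in adult Plk3-KO retinas, and 1.5 to 3.0 at P0 and 10.4 to 11.5 in adult WT retinas, while Best1 was below 5 on all 18 arrays. From P0 to adult, 4 of the 5 pigment epithelium markers tested were called higher in Plk3-KO retinas, against 5 of 5 in WT retinas. The shares of all probe sets tested were 20.1% in Plk3-KO and 21.3% in WT. Rpe65 and Rgr, and Tyr in WT retinas, had P0 means below 7 and had to differ, which leaves 2 of 3 in Plk3-KO and 2 of 2 in WT retinas. From P7 to adult, 3 of the 5 were called higher in each genotype, against 9.16% of all probe sets tested in Plk3-KO and 9.95% in WT retinas. They were Rpe65, Rgr and Ttr, while the arrays of Tyr and of Tyrp1 overlapped between these ages in both genotypes. From P0 to adult, 3 of 4 bipolar markers were called higher in each genotype, against the same shares of all probe sets. Of genes firm at both ages, so were 3 of 5 Mueller glia markers, with 2 lower in Plk3-KO and 1 in WT retinas. For cone markers it was 3 of 3 in Plk3-KO and 2 of 2 in WT retinas. Lens markers followed no steady order of age. Their list means ran from 3.24 to 13.3 on P0 arrays, 3.62 to 5.50 on P7 arrays and 5.10 to 10.3 on adult arrays.

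**Figure D4:**
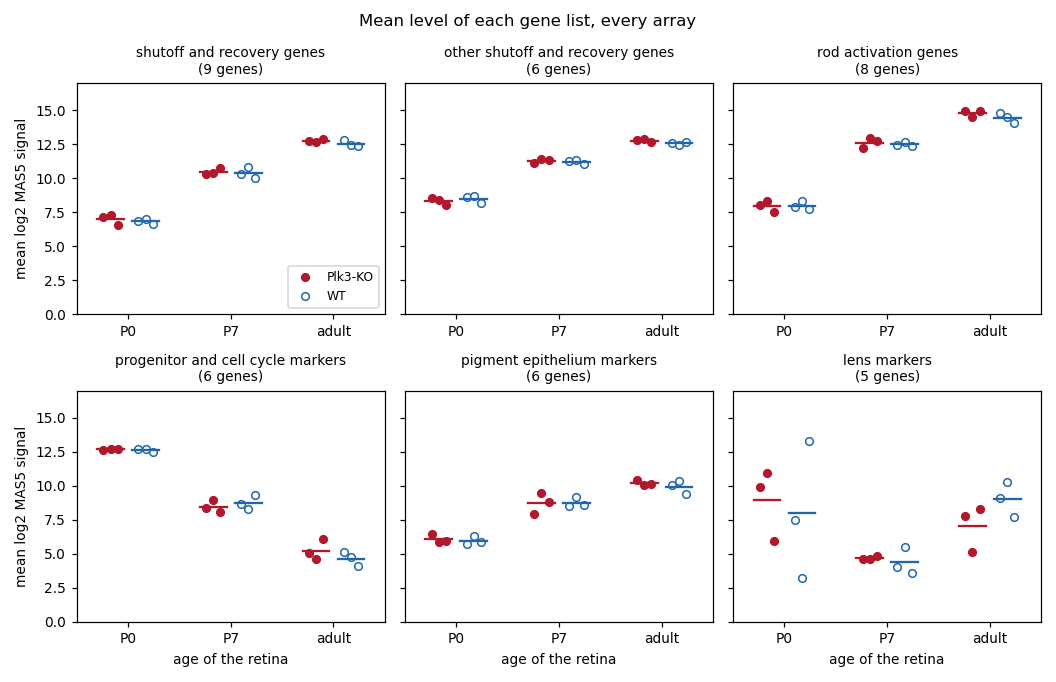
Mean log2 MAS5 signal (y axis) of 6 gene lists on every array by age (x axis), with filled red points for Plk3-KO, open blue points for WT and lines for group means of 3 arrays. The 9 shutoff and recovery genes, the other genes of these steps, the rod activation genes and the pigment epithelium markers lie higher at each later age. Progenitor and cell cycle markers lie lower, and lens markers scatter between arrays at P0 and in adults. The means include genes with values below 7.

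The 10 genes listed next followed the mean of the 9 lead values most closely over the 18 arrays, among 12101 other genes with 1 probe set each and a mean above 7 in some group. They were Mpp4 (Pearson r = 0.995), Zbtb4, Cplx4, Reep6, Rtbdn, Cabp4, Aipl1, Klhl18, Sh3gl2 and Abca4 (r = 0.991). Mpp4 averaged 9.07 at P0, 12.4 at P7 and 14.1 in adult Plk3-KO retinas, and 9.27, 12.2 and 13.8 at the same ages in WT retinas. The arrays share the age order and the overall scaling, so these values describe a common course with age and no p is given. The mean of the 9 leads includes Gucy2e, below 7 on every array, and Grk1, Guca1b and Slc24a1, below 7 at P0.

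Whether loss of Plk3 altered these genes was asked at each age. None of the 5 genes tested at P0, the 8 at P7 or the 8 in adults was called between Plk3-KO and WT retinas, and 0% of all probe sets were called at any age by limma. At an unadjusted p under 0.05, limma passed 85 probe sets at P0, 123 at P7 and 1008 in adults, and none was a lead of these genes. The methods' t-test passed 503 probe sets at P0, 250 at P7 and 660 in adults at its own threshold and 0 after Benjamini-Hochberg adjustment, again with none of these genes. In the mean of the genotype differences over the 3 ages, and in the 3 tests of whether the age steps differ between genotypes, 0% of all probe sets and none of the 8 genes were called. Limma passed 396 probe sets at an unadjusted p under 0.05 in the mean over ages. In the tests of the steps it passed 110 for P7 minus P0, 288 for adult minus P7 and 458 for adult minus P0. After adjustment the t-test also gave 0 in all of them.

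The sizes that remain possible are set by the intervals. At P0, Plk3-KO minus WT ranged from -0.43 log2 for Rcvrn (95% interval -1.35 to 0.48) to 0.10 for Sag (-0.57 to 0.77), with a median of 0.03 over 5 genes. At P7 it ranged from -0.30 for Slc24a1 (-1.23 to 0.63) to 0.23 for Grk1 (-0.97 to 1.44) and Rgs9 (-0.41 to 0.87), with a median of 0.08. With 1 array left out the P0 median lay between -0.23 (without Plk3-KO array 2) and 0.20 (without Plk3-KO array 3), and was also below 0 without Plk3-KO array 1 or WT array 3. The P7 median lay between -0.025 (without Plk3-KO array 2) and 0.20 (without Plk3-KO array 1). Rcvrn at P0 was -0.97 without WT array 3, and Grk1 at P7 was -0.50 without WT array 3. In adults 7 of 8 leads were above 0, from -0.03 for Rgs9 (-0.67 to 0.61) to 0.43 for Guca1a (-0.49 to 1.35). The median over the 8 was 0.35 against -0.03 over all probe sets tested. Adult medians were 0.33 for rod activation genes, 0.37 each for rod identity and pigment epithelium markers and 0.20 for cone markers. They were -0.33 for Mueller glia, -0.12 for bipolar and -0.13 for amacrine and ganglion cell markers. The cause was not tested. For each of the 9 genes the arrays of both genotypes overlapped at every age, while of all probe sets tested 3.49% at P0, 1.92% at P7 and 5.48% in adults did not overlap.

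The size of the adult median depended on single arrays and on the scaling. Adult WT array 3 was the lowest of its group for 7 of the 9 genes, and without it the median was 0.13 log2. It was 0.20 without adult Plk3-KO array 3 and 0.53 without adult WT array 1. With any 1 adult array left out, 7 or 8 of the 8 genes stayed above 0. After quantile normalization the median was 0.04, with 7 of 8 genes above 0. With the actin control as a covariate it was 0.24, again with 7 of 8 above 0. Without the 4 arrays that stood apart it was -0.05, with 3 of 8 genes above 0. Over the 3 ages the largest mean differences were 0.26 log2 for Grk1 (95% interval -0.44 to 0.95) and for Guca1b (-0.09 to 0.60). An exact permutation test of the genotype labels within ages (two-sided, 8000 permutations) gave p from 0.211 for Guca1b to 1 for Rcvrn over the 8 genes, before any adjustment, the P0 values of Grk1, Guca1b and Slc24a1 not being firm. Within 1 age, 3 arrays against 3 cannot give an exact p below 0.1.

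Among the 8 genes tested, Guca1b came closest to a difference in course. Its step from P0 to P7 was 2.67 log2 in Plk3-KO and 3.50 in WT retinas, a difference of -0.83 (95% interval -1.69 to 0.02, unadjusted p = 0.0551 and adjusted p = 1, limma). The P0 values behind it were below 7. Rgs9bp, outside these genes, was 0.80 log2 higher in adult Plk3-KO than in adult WT retinas (adjusted p = 0.977, limma), where 0% of all probe sets were called. Its unadjusted p was under 0.05, as for 1008 probe sets in adults. Its step from P0 to adult was larger in Plk3-KO retinas by 0.80 ± 0.34 log2 (SE). That also had an unadjusted p under 0.05 (limma), as for 458 probe sets, and was not called.

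**Figure D5:**
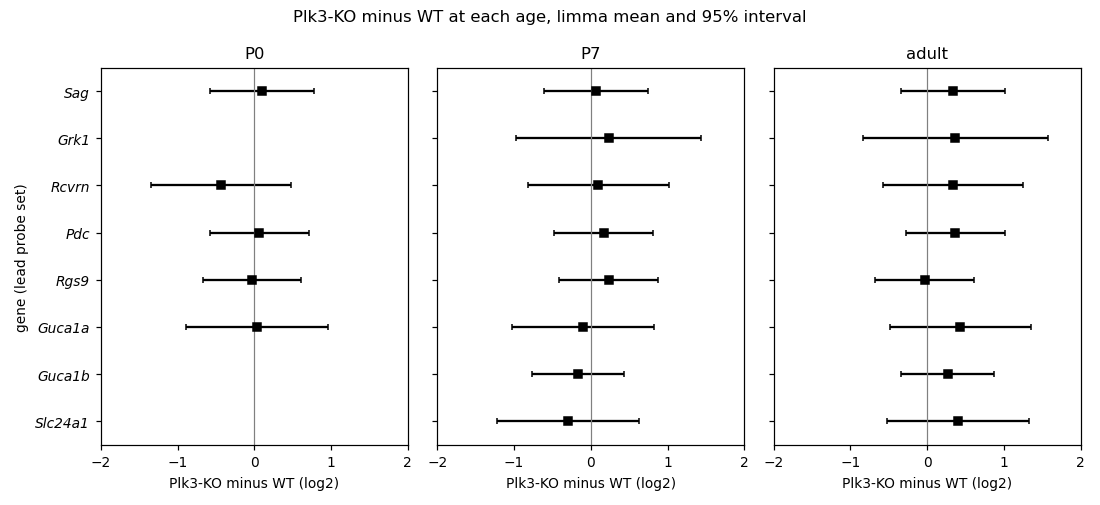
Plk3-KO minus WT in log2 units (x axis) for the lead probe sets (y axis) at P0, P7 and adult. Squares are limma means over 3 arrays per group and bars 95% intervals, and genes below the minimum of 7 in both groups at P0 have no point. All intervals include 0, and 7 of 8 adult means lie above it.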

How the data were processed

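The authors deposited log2 MAS5 signals of 18 arrays, made from Tri-reagent RNA with the Affy package in R (versions not given), with background adjustment and normalization by MAS5. The total signal is scaled per array, so a change of composition with age can shift all values, and the number of arrays limits the precision. The 64 control probe sets were left out, and genes were named where the platform annotation gives 1 symbol (34945 probe sets, with 932 listing several and 9160 unnamed here). Limma 3.58.1 in R 4.3.3 fitted 6 group means to all 18 arrays with a trend in the variances, for probe sets with a mean above 7 in a group compared. Adjusted p under 0.05 was a call. The fit was tested on simulated data. Genes named are the 9 with all their probe sets, and of other lists those with the highest means or that bear on a result. The genes and lists were chosen with earlier results of these data known. Deviations of same-numbered arrays of both genotypes correlated at -0.058 to 0.19 at P0, -0.61 to 0.38 at P7 and 0.098 to 0.54 in adults, so not every pair deviated together and they were not paired. Some differently numbered P7 arrays deviated together: Plk3-KO array 2 with WT array 3 (r = 0.60) and Plk3-KO array 3 with WT array 2 (r = 0.63). Other differently numbered P7 arrays were at -0.47 to 0.31. Alternatives were quantile normalization, no minimum, no variance trend, the methods' t-test, a replicate block and leaving out each array. Embryonic arrays were not analysed here.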

Additional observations from a re-analysis of the deposited data

How the results depend on the processing

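The alternatives run changed no direction of a called difference. From P0 to P7 and from P0 to adult, 7 of 8 genes were called in each genotype after quantile normalization, without the variance trend, with the methods' t-test, with any 1 array left out and without the 4 arrays that stood apart. Grk1, Guca1b and Slc24a1, with P0 means below 7, again add nothing to these counts, which leaves Sag, Rcvrn, Pdc and Guca1a. Without the minimum of 7, Gucy2e was tested too and it was 8 of 9, but the values of Gucy2e are not firm and its call carries no weight. The replicate block and the actin covariate were run for the genotype comparisons only. From P7 to adult, the genes called in WT retinas were 3 after quantile normalization, 2 with the methods' t-test and 3 to 5 with 1 array left out, the low count coming without WT adult array 1 or 2. In Plk3-KO retinas they were 3 after quantile normalization and 5 to 6 with 1 array left out. With the methods' t-test Sag (adjusted p = 0.133) and Pdc (adjusted p = 0.257) lost their calls there. Slc24a1 lost its call in WT retinas with the t-test (adjusted p = 0.0542), and Pdc gained one without P7 WT array 3 (1.02 log2, adjusted p = 0.0376). Over all probe sets, the t-test called 2938 of P7 minus P0 and 687 of adult minus P7 in WT retinas, against 4771 and 4382 with limma, and 591 of adult minus P7 and 7105 of adult minus P0 in Plk3-KO retinas, against 4269 and 10827. Left-out arrays gave 2389 to 6355 calls for adult minus P7 in WT retinas, with 2389 without WT adult array 1 and 2468 without array 2.

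The alternatives without the 4 arrays that stood apart and with an actin covariate were chosen after seeing the data. Without the 4 arrays that stood apart, limma called 8545 probe sets for adult minus P7 in Plk3-KO retinas, and 7486 for P7 minus P0 and 10093 for adult minus P7 in WT retinas. Between genotypes, 338 were then called in adults, 16 over the 3 ages, and 10 for adult minus P7 and 23 for adult minus P0 between the steps, none a lead of these genes. With the 3' minus 5' signal of actin as a covariate, 5 were called over the 3 ages. With 1 array left out, the genotype calls were 0 to 1 at P0 (1 without P0 WT array 1), 0 to 1 at P7 (1 without P7 WT array 2) and 0 to 105 in adults, with 4 without adult Plk3-KO array 2 and 105 without adult WT array 3. Over the 3 ages they were 0 to 3, with 2 without adult Plk3-KO array 2, 3 without its array 3, 2 without adult WT array 3 and 1 without P0 WT array 3. Between the steps they were 0 to 1 for adult minus P7 and 0 to 3 for adult minus P0, the highest without adult Plk3-KO array 2 in both. None of these calls was a lead probe set of the 9 genes, and the cause was not tested. With the replicate block, 0 probe sets were called in each genotype comparison and test of the steps, as without it. The block joins same-numbered arrays, so it does not take up what differently numbered arrays shared at P7.

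Quantile normalization moved the median of all probe sets for adult minus P0 to -0.10 log2 in Plk3-KO and -0.05 in WT retinas, against -0.20 in both as deposited. The median of the 8 genes was then 6.96 in Plk3-KO and 6.57 in WT retinas, against 7.12 and 6.63 as deposited. These medians include Grk1, Guca1b and Slc24a1, which entered only through the adult group, so their size is not read as a fold. Signals below 7, as for Gucy2e at all ages and Grk1, Guca1b and Slc24a1 at P0, limit what can be said of those genes. P-values rest on 3 arrays per group.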
